A study of Homo sapiens with 10 samples.

Results

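The AP-1 genes described here are the 8 genes FOS, FOSB, FOSL1, FOSL2, JUN, JUNB, JUND and ATF3. They were picked by gene symbol, with no measured value used in the rule, and each has 1 transcript among the 11258 transcripts that both expression tables hold. BJ cells are human skin fibroblasts, immortalized here by expression of hTERT, the catalytic subunit of telomerase. They were grown in DMEM with fetal calf serum and received nutlin-3a, a small molecule that keeps MDM2 from binding p53, for 2, 4, 6 or 19 h. The control group is labelled as a control sample and is the 0 h point of the design; a solvent is not named for it. Gene expression was measured by RNA-Seq of poly(A) RNA and translation by Ribo-Seq, which sequences the stretches of mRNA covered by ribosomes, so that 10 libraries form 10 groups of 1 library each. There is therefore no replicate behind any value, no test between groups was possible, and the intervals given below are exact 95% intervals for counting error alone, which treat reads as independent molecules although copies made by PCR could not be told apart.

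AP-1 is a dimer of basic leucine zipper (bZIP) proteins. Fos proteins (FOS, FOSB, FOSL1 and FOSL2) need a Jun partner to bind DNA, whereas Jun proteins (JUN, JUNB and JUND) also pair with each other and with ATF proteins such as ATF3. The dimers bind the TPA response element or the cyclic AMP response element, and several of the genes are immediate-early genes, transcribed within minutes of serum, growth factors or stress without new protein synthesis. In fibroblasts, AP-1 is best known for its part in the entry into the cell cycle after serum and in the control of matrix proteases. ATF3 is a stress-induced factor that often acts as a repressor, and its gene has been described as a target of p53.

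Stretches of 6 promoters are shown first, chosen as stretches in which members share a CRE match or a TATA box. No link between these matches and the levels below was tested. The sequences are RefSeq's, on build GRCh38.p14, written 5′ to 3′ on the strand of the gene. Windows of 300 bases (250 before the start of transcription and 50 from it on) were available for 7 of the 8 members. FOSL1 has none and ATF3 has 2 of them. Capitals mark matches, in either direction, to TGACNTCA (the cyclic AMP response element, CRE, with 1 free base), TGACG (its half-site) and TATAAA (the TATA box). The first 4 lines show bases -80 to -1 from the start, the fifth shows bases -160 to -81 of ATF3, and the last shows bases -240 to -161 of JUND, where the CRE match of those genes lies.
FOS: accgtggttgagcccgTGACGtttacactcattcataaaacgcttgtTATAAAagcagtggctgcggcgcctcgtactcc
FOSB: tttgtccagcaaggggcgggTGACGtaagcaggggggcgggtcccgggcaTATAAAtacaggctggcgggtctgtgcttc
JUNB: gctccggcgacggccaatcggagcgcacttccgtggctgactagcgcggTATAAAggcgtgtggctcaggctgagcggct
JUN: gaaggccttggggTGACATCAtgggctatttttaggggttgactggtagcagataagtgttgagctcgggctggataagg
ATF3: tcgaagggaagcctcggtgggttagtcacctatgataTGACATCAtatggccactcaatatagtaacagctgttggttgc
JUND: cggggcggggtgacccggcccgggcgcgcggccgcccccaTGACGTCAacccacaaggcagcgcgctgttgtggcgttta

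These stretches lie at chr14:75278748-75278827 (plus strand, FOS), chr19:45467916-45467995 (plus strand, FOSB), chr19:12791406-12791485 (plus strand, JUNB), chr1:58784048-58784127 (minus strand, JUN), chr1:212565247-212565326 (plus strand, ATF3) and chr19:18281783-18281862 (minus strand, JUND). They end before the annotated start, so they are upstream of the first exon of the transcript that begins there. FOS and FOSB had the same arrangement, with the half-site at -64 and -60 and the TATA box at -33 and -30. JUNB had a TATA box at -31 and its half-site further up, at -137. FOSL2, not shown, had half-sites at -66 and -201, and JUN and JUND had further ones at -123 and -86. The other window of ATF3, not shown, held TATAAA at -230, further from the start than in FOS, FOSB and JUNB. JUN, ATF3 and JUND shared a CRE match, at -67, -123 and -200. In JUND it is the whole palindrome TGACGTCA, which holds a half-site in each direction. Over all 35116 windows, 7.72% held TGACNTCA, 24.6% held TGACG and 11.5% held TATAAA, against 3, 6 and 4 of the 8 windows of members. TGANTCA, the TPA response element, was present in 7.71% of all windows and in 1 of the members' windows, that of FOSL2, at 5 bases past the start. The CArG box and the p53 half-site, searched by their usual degenerate letters, were present in 1.29% and 6.63% of all windows. They were present in 0 of the members' windows. At these shares a count of 0 in 8 windows is near the background, and bases upstream of the windows were not searched. The 0 therefore does not show that these genes lack such sites. A match is a run of letters and says nothing on binding in these cells.

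The libraries held about 23846000 to 27554000 reads on transcripts in RNA-Seq and 7745000 to 14461000 in Ribo-Seq, recovered from the spacing of the deposited values. The cells carried fibroblast RNA in each RNA-Seq library: all 10 fibroblast markers were at 1 FPKM or more (FPKM are fragments scaled to transcript length and library size), and their sum was 10080 to 13554 FPKM. Of the 4 epithelial markers in the table, CDH1 and KRT19 stayed below 1 FPKM and KRT8 and KRT18 did not (sum 243 to 327 FPKM). Of 4 leukocyte markers, PTPRC and CD14 stayed below 1 FPKM and CD68 was at 61.4 to 86.4 FPKM, while VWF, the endothelial marker in the table, did not pass 0.156 FPKM. CDKN1A, the p53 target that encodes the CDK inhibitor p21, stood at 68.6 FPKM in the control and at 212, 915, 1204 and 1316 FPKM at 2, 4, 6 and 19 h in RNA-Seq. MDM2, the p53 target whose product nutlin-3a binds, stood at 14.9 FPKM in the control and at 36.3, 203, 254 and 259 FPKM, so both were higher at each treated time. Of the genes in both tables, 7015 had a library with 5 FPKM or more in RNA-Seq and another in Ribo-Seq, and these, called the tested genes below, were read for a 2-fold difference. FOSL1, FOSL2, JUN, JUNB and JUND are among them, and FOS, FOSB and ATF3 are not, so that each statement on tested members covers 5 of the 8. These 5 were above 5 FPKM in every library. Other genes, among them genes of the lists below, could pass through the very library in which they rose. Calls of such genes as higher are therefore not independent of the filter.

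At 2 h each of the 8 genes stood above its control in both assays, where 35.4% of all tested genes did in RNA-Seq and 51.9% in Ribo-Seq. Beyond counting error this held for 7 of the 8 in RNA-Seq, FOS being the exception, and for 8 in Ribo-Seq. JUNB, FOSB and ATF3 had the largest folds, 6.63 (6.20 to 7.09), 27.2 (17.2 to 45.4) and 10.5 (6.81 to 17.1) in RNA-Seq. By 4 h, 7 of the 8 were below their 2 h value in RNA-Seq, 6 of them beyond counting error, while FOS and ATF3 differed from 2 h by less than counting error. The share of all tested genes below their 2 h value was not computed. At 6 and 19 h the genes separated, with JUNB above the control in both assays and FOSL1 below it in both. All times are set against the same control libraries, so a low or high control value of a gene enters each of its 4 comparisons. Whether the 2 and 4 h libraries shared the sequencing run of the control is not given. In RNA of a whole culture, fewer cells of a type and less RNA per cell cannot be told apart.

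**Figure D1:**
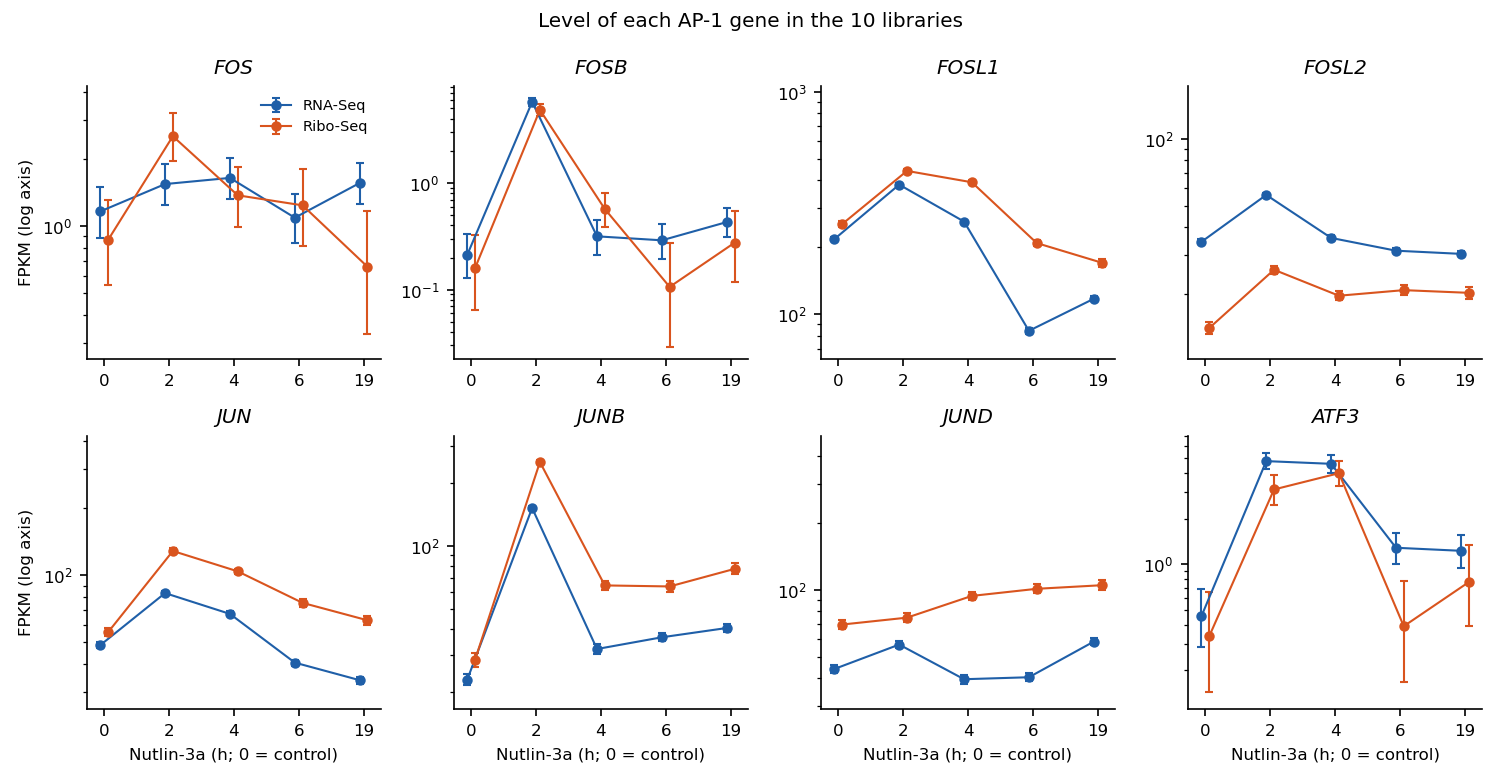
Level of each of the 8 AP-1 genes (FPKM, log axis, a scale of its own in each panel) against hours of nutlin-3a, 0 being the control; points are single libraries (blue RNA-Seq, orange Ribo-Seq), bars are exact 95% counting intervals, and the hours are not drawn to scale. JUNB, FOSB and ATF3 stand far above their controls at 2 h, and ATF3 still does at 4 h.

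FOS (ENSG00000170345), the founding Fos protein and the usual example of an immediate-early gene, was scarce throughout. Its RNA-Seq level was 1.17 FPKM (60 reads) in the control, 1.55 FPKM (90 reads) at 2 h, 1.65 FPKM (87 reads) at 4 h, 1.09 FPKM (65 reads) at 6 h and 1.565 FPKM (88 reads) at 19 h. Its Ribo-Seq level was 0.867 FPKM (22 reads), 2.54 FPKM (65 reads), 1.38 FPKM (43 reads), 1.24 FPKM (27 reads) and 0.658 FPKM (11 reads) in the same order. The RNA-Seq values of 2, 4 and 19 h are the higher ones and those of the control and 6 h the lower ones, and the 2 h value of Ribo-Seq stands out from the other 4. The RNA-Seq ratio of 2 h to control was 1.33 with an interval of 0.947 to 1.87, which includes no difference, and that of 4 h was 1.42 (1.01 to 2.00). In Ribo-Seq the 2 h ratio was 2.93 (1.78 to 4.99). From 4 to 6 h the RNA-Seq level was 1.51-fold lower (1.08 to 2.11), and at 19 h it was 1.43-fold above that of 6 h (1.03 to 2.00). TE (translation efficiency, the log2 ratio of Ribo-Seq to RNA-Seq FPKM) of FOS, from the values as deposited, was 1.14 ± 0.43 (counting SE) higher at 2 h than in the control. At 4 h its Ribo-Seq level was 1.84-fold lower than at 2 h (1.23 to 2.78).

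FOSB (ENSG00000125740), the Fos gene most like FOS, was close to absent in the control and showed the sharpest peak of the family. In RNA-Seq it stood at 0.212 FPKM (19 reads) in the control, 5.76 FPKM (583 reads) at 2 h, 0.316 FPKM (29 reads) at 4 h, 0.290 FPKM (30 reads) at 6 h and 0.430 FPKM (42 reads) at 19 h. In Ribo-Seq it stood at 0.159 FPKM (7 reads), 4.85 FPKM (216 reads), 0.571 FPKM (31 reads), 0.106 FPKM (4 reads) and 0.275 FPKM (8 reads). The 2 h library is the high one in each assay, and the other 4 of each assay are below 1 FPKM. The ratio of 2 h to control was 27.2 (17.2 to 45.4) in RNA-Seq and 30.6 (14.6 to 77.0) in Ribo-Seq, and these rest on the few reads of the control. From 2 to 4 h FOSB was 18.2-fold lower in RNA-Seq (12.6 to 27.5) and 8.50-fold lower in Ribo-Seq (5.81 to 12.8). At 19 h RNA-Seq was 2.02-fold above the control (1.15 to 3.68), and the Ribo-Seq ratio of 1.74 had an interval that includes 1 (0.550 to 5.62).

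FOSL1 (ENSG00000175592), which encodes FRA-1, a Fos protein without the transactivation region of FOS, was the most abundant of the 8 in every library. Its RNA-Seq level was 217 FPKM in the control, 382 FPKM at 2 h, 261 FPKM at 4 h, 84.1 FPKM at 6 h and 117 FPKM at 19 h. Its Ribo-Seq level was 254, 440.1, 391, 209 and 170.4 FPKM in the same order. Both assays had their highest value at 2 h and values below the control at 6 and 19 h, with the lowest at 6 h in RNA-Seq and at 19 h in Ribo-Seq. RNA-Seq was 1.76-fold above the control at 2 h (1.71 to 1.80) and 2.58-fold below it at 6 h (2.49 to 2.68), whereas Ribo-Seq was 1.73-fold above it at 2 h (1.68 to 1.80) and 1.22-fold below it at 6 h (1.16 to 1.27). From 4 to 6 h alone the RNA-Seq level was 3.10-fold lower (2.98 to 3.21). At 19 h it was 1.85-fold below the control in RNA-Seq (1.79 to 1.92) and 1.49-fold below it in Ribo-Seq (1.42 to 1.57).

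FOSL2 (ENSG00000075426) encodes FRA-2, the other Fos protein that lacks the FOS transactivation region, and it was the second Fos gene by level. It stood at 34.3 FPKM in the control, 55.8 FPKM at 2 h, 35.8 FPKM at 4 h, 31.3 FPKM at 6 h and 30.3 FPKM at 19 h in RNA-Seq. In Ribo-Seq it stood at 14.1, 25.7, 19.7, 20.8 and 20.3 FPKM. RNA-Seq had 1 high library, at 2 h (1.63-fold, 1.57 to 1.68), and values at 6 and 19 h below the control. Ribo-Seq was above the control at all 4 times, by 1.83-fold at 2 h (1.70 to 1.97) and by 1.44-fold at 19 h (1.32 to 1.57). Its transcript, 6708 nt long, was the longest of the 8, and that of FOSL1, 1669 nt, the shortest.

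JUN (ENSG00000177606) encodes c-Jun, the main partner of the Fos proteins and the target of the JNK kinases. It stood at 48.6 FPKM in the control, 83.3 FPKM at 2 h, 67.2 FPKM at 4 h, 40.6 FPKM at 6 h and 33.8 FPKM at 19 h in RNA-Seq. In Ribo-Seq it stood at 55.5, 129, 104, 75.3 and 62.9 FPKM. Both assays were highest at 2 h and lower at each later time, but RNA-Seq passed below its control at 6 h and Ribo-Seq did not. The ratio of 2 h to control was 1.71 (1.65 to 1.78) in RNA-Seq and 2.32 (2.21 to 2.44) in Ribo-Seq. At 19 h RNA-Seq was 1.44-fold below the control (1.37 to 1.51), and Ribo-Seq was 1.13-fold above it (1.06 to 1.21).

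JUNB (ENSG00000171223), a Jun protein that is a weaker activator than c-Jun on single sites, had the largest difference from the control of all tested members. It stood at 22.9 FPKM (989 reads) in the control, 151 FPKM (7405 reads) at 2 h, 32.0 FPKM (1419 reads) at 4 h, 36.4 FPKM (1821 reads) at 6 h and 40.3 FPKM (1907 reads) at 19 h in RNA-Seq. In Ribo-Seq it stood at 28.4 FPKM (607 reads), 251 FPKM (5410 reads), 64.5 FPKM (1693 reads), 63.8 FPKM (1166 reads) and 77.4 FPKM (1088 reads). The 2 h library is far above the rest in both assays, and the 3 later libraries lie between it and the control. The 2 h ratio was 6.63 (6.20 to 7.09) in RNA-Seq and 8.84 (8.13 to 9.63) in Ribo-Seq. By 4 h the level was 4.73-fold lower than at 2 h in RNA-Seq (4.47 to 5.01) and 3.90-fold lower in Ribo-Seq (3.69 to 4.12). At 19 h it was still 1.77-fold above the control in RNA-Seq (1.63 to 1.91) and 2.72-fold above it in Ribo-Seq (2.46 to 3.01).

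JUND (ENSG00000130522), the Jun gene that most cells transcribe steadily, moved least at 2 h among the tested members. It stood at 44.1 FPKM in the control, 56.8 FPKM at 2 h, 39.7 FPKM at 4 h, 40.5 FPKM at 6 h and 58.6 FPKM at 19 h in RNA-Seq. In Ribo-Seq it stood at 69.9, 75.0, 94.0, 101 and 105 FPKM. The Ribo-Seq values follow the hours of treatment upward, whereas those of RNA-Seq were high at 2 and 19 h and below the control at 4 and 6 h. The last Ribo-Seq step, from 6 to 19 h, was within counting error (1.04, 0.969 to 1.11). The ratio to the control was 1.29 (1.22 to 1.36) at 2 h and 1.33 (1.25 to 1.41) at 19 h in RNA-Seq. In Ribo-Seq it was 1.07 at 2 h, with an interval of 1.00 to 1.15, and 1.502 at 19 h (1.398 to 1.61).

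ATF3 (ENSG00000162772) was scarce in the control and had a peak that lasted longer than that of FOSB. It stood at 0.454 FPKM (22 reads) in the control, 4.78 FPKM (262 reads) at 2 h, 4.59 FPKM (228 reads) at 4 h, 1.285 FPKM (72 reads) at 6 h and 1.23 FPKM (65 reads) at 19 h in RNA-Seq. In Ribo-Seq it stood at 0.335 FPKM (8 reads), 3.11 FPKM (75 reads), 3.98 FPKM (117 reads), 0.391 FPKM (8 reads) and 0.762 FPKM (12 reads). The libraries of 2 and 4 h are high in both assays and did not differ from each other beyond counting error, since the ratio of 4 to 2 h was 0.960 (0.800 to 1.15) in RNA-Seq and 1.28 (0.949 to 1.73) in Ribo-Seq. Against the control, RNA-Seq was 10.5-fold higher at 2 h (6.81 to 17.1), 10.1-fold at 4 h (6.52 to 16.5), 2.83-fold at 6 h (1.74 to 4.80) and 2.70-fold at 19 h (1.65 to 4.61). Ribo-Seq was 9.30-fold higher at 2 h (4.49 to 22.3) and 11.9-fold at 4 h (5.84 to 28.2), but its ratios of 1.17 at 6 h (0.382 to 3.57) and 2.28 at 19 h (0.856 to 6.43) rest on 8 and 12 reads and include 1. From 4 to 6 h ATF3 was 3.57-fold lower in RNA-Seq (2.73 to 4.72) and 10.2-fold lower in Ribo-Seq (5.00 to 24.2).

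The order of the 8 genes by level (FPKM, which is scaled to transcript length) changed with time below the top place. In the RNA-Seq control it ran FOSL1, JUN, JUND, FOSL2, JUNB, FOS, ATF3 and FOSB, and of these neighbours only ATF3 and FOSB had overlapping counting intervals. At 2 h JUNB took the second place, and the pairs JUND and FOSL2 and then FOSB and ATF3 overlapped. At 6 h JUN and JUND overlapped, as did ATF3 and FOS, and at 19 h FOS and ATF3 did. In Ribo-Seq FOSL2 held the fifth place in each library, behind the 3 Jun genes. Ribo-Seq values were scaled to the same length as RNA-Seq values, so this place also depends on the coding share of a transcript. The overlaps in Ribo-Seq were confined to FOS, FOSB and ATF3, the 3 genes with few reads.

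Summed over the 8 genes, the level was 369 FPKM in the RNA-Seq control, 741 FPKM at 2 h, 442 FPKM at 4 h, 236 FPKM at 6 h and 283 FPKM at 19 h. The Ribo-Seq sums were 423, 931, 679.7, 471 and 438 FPKM. FOSL1 made up 58.9% of the RNA-Seq sum in the control, and 51.5%, 59.0%, 35.7% and 41.3% in the treated libraries in order of time. JUNB went the other way between the control and 2 h, from 6.2% to 20.4% in RNA-Seq and from 6.7% to 27.0% in Ribo-Seq. The 4 Fos genes together stood at 2.19 times the sum of the 3 Jun genes in the RNA-Seq control, and at 1.53, 2.15, 0.995 and 1.13 times that sum at 2, 4, 6 and 19 h. In Ribo-Seq the same ratio was 1.75 in the control and 1.04, 1.57, 0.961 and 0.781 later. The ratio was lower at 6 and 19 h than in the control in both assays, with the 2 h value in between.

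**Figure D2:**
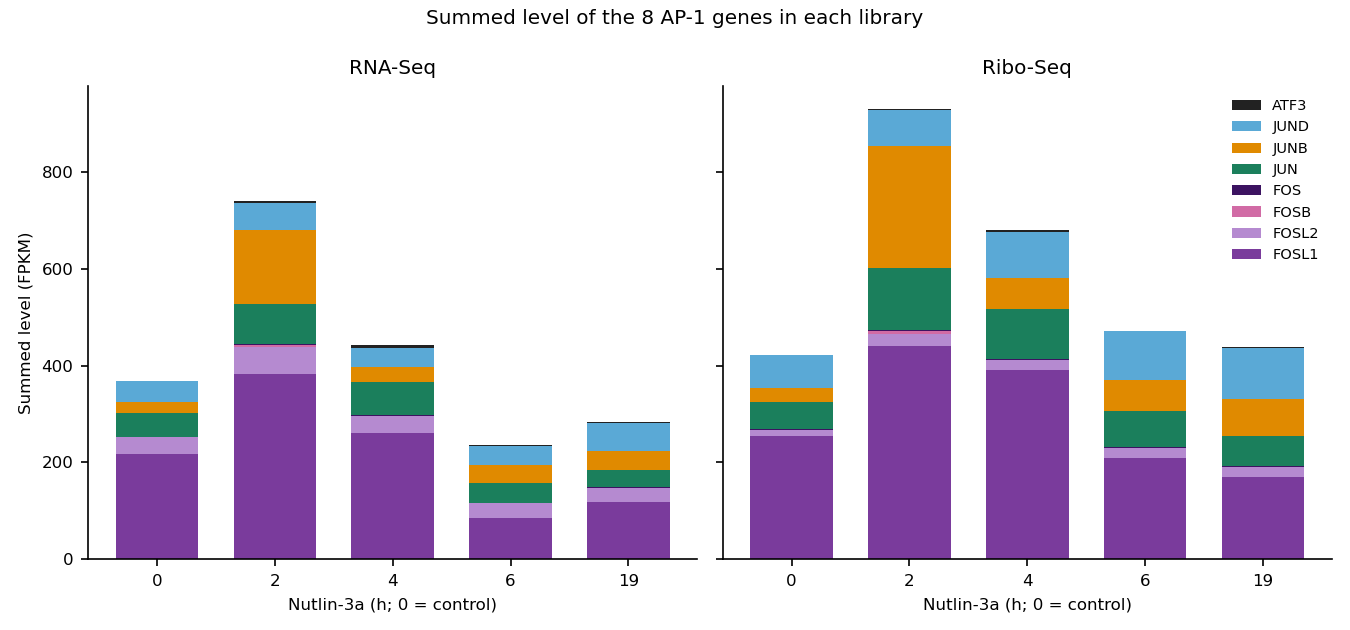
Summed level (FPKM, linear axis from 0) of the 8 AP-1 genes in each library, RNA-Seq on the left and Ribo-Seq on the right, against hours of nutlin-3a (0 is the control); each colour is a gene and each bar a single library. The 2 h bars are the tallest, at 741 and 931 FPKM, FOSL1 is the largest block in each bar, and the JUNB block is tallest at 2 h.

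Read against all 7015 tested genes, where each FPKM below 1 was set to 1 and a call is a 2-fold difference from the control either way, JUNB was the most frequent call. In RNA-Seq at 2 h it was called, 1 of the 5 tested members, where 0.941% of all tested genes were. Its log2 change of 2.73 was the fifth highest of all tested genes. The other 4 were short of 2-fold, with log2 changes of 0.36 for JUND to 0.81 for FOSL1, yet each of them had at most 3.86% of tested genes above it. The median of the 5 was 0.78 on the log2 scale and that of all tested genes -0.05. With no filter on low values, 3 of the 8 members were called (FOSB, JUNB and ATF3), beside 0.684% of all 11258 genes.

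At the later times the RNA-Seq calls were few. None of the 5 was called at 4 h, when 2.1% of tested genes were, and the median log2 change was 0.26 for the members and -0.07 for all. At 6 h FOSL1 was called as lower (log2 change -1.37), 1 of 5 beside 7.14% of all tested genes, and 3.58% of tested genes were lower still. At 19 h 0 of 5 were called beside 9.59%. The median of the members at 6 and 19 h, -0.13 and -0.18, lay on the same side of 0 as that of all genes, -0.0024 and -0.07.

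In Ribo-Seq JUN and JUNB were called at 2 h, 2 of 5 beside 2.25% of tested genes, with log2 changes of 1.21 and 3.14. JUNB was the fourth highest of all tested genes. With no filter FOS, FOSB, JUN, JUNB and ATF3 were called, 5 of 8 beside 1.97% of all genes. JUNB was the 1 member called at 4 h (log2 change 1.18), at 6 h (1.17) and at 19 h (1.44), beside 3.11%, 13.3% and 21.1% of tested genes. The medians of the 5 members were 0.87, 0.63, 0.53 and 0.53 at the 4 times, and those of all tested genes were 0.02, 0.10, -0.02 and -0.19, so that the median of the members lay above that of all genes at each time. FOSL1 was the member below its control in Ribo-Seq at 6 and 19 h, with log2 changes of -0.28 and -0.57.

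**Figure D3:**
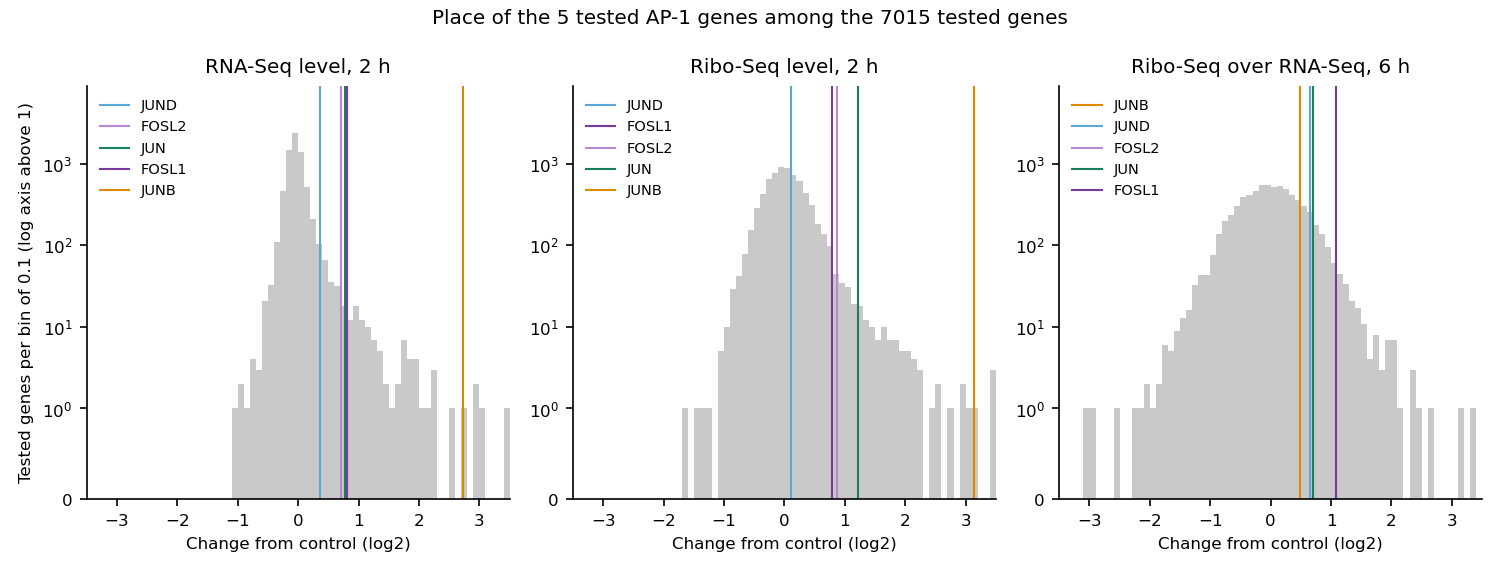
Number of tested genes (grey, bins of 0.1, axis logarithmic above 1) by log2 change from the control, for RNA-Seq at 2 h, Ribo-Seq at 2 h and TE at 6 h; changes beyond the ends of the axis are in the end bins, and coloured lines mark the 5 tested AP-1 genes. JUNB lies in the far right tail of both 2 h panels, at 2.73 and 3.14, and at 6 h all 5 lines lie right of 0, FOSL1 furthest at 1.09.

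TE compares the layers directly. In the control TE was 0.22 for FOSL1, -1.29 for FOSL2, 0.19 for JUN, 0.32 for JUNB and 0.66 for JUND on the log2 scale. FOSL2 had the lowest of these, with 11.2% of tested genes below it, whereas JUND had 86.2% below it. Both assays were scaled to the same length of a transcript (6708 nt for FOSL2, 1870 nt for JUND). A TE level therefore also depends on how much of a transcript is coding, and genes are not ranked by translation from it. At 2 h the change of TE was 0.44 ± 0.05 (counting SE) for JUN and 0.42 ± 0.08 for JUNB, it was -0.26 ± 0.07 for JUND, and FOSL1 differed from its control by less than its counting error (-0.02 ± 0.03).

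From 4 h on, TE of all 5 tested members was above the control and above the median change of all tested genes. Of all tested genes, 73.3%, 50.2% and 44.4% had a TE above the control at 4, 6 and 19 h. At 6 h the changes were 1.09 ± 0.04 for FOSL1, 0.70 ± 0.06 for FOSL2, 0.70 ± 0.05 for JUN, 0.49 ± 0.09 for JUNB and 0.66 ± 0.07 for JUND, where the median over all tested genes was 0.0021. FOSL1, whose RNA-Seq level was at its lowest at that time, was the only call, 1 of 5 beside 5.74% of tested genes. At 2, 4 and 19 h 0 of 5 were called, beside 1.2%, 0.998% and 6.14%. At 19 h the changes ran from 0.18 for JUND to 0.71 for FOSL2, beside a median of -0.07 for all. At 4 h the median of all tested genes was itself 0.18 above 0, and the members stood at 0.36 to 0.70.

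Ribo-Seq changed with transcript length in these libraries: per doubling of length the change of TE over all tested genes was 0.11 higher at 2 h, 0.17 higher at 6 h and 0.15 higher at 19 h, and 0.02 lower at 4 h. With that trend taken off, an alternative chosen after seeing the data, the 6 h changes were 1.195 for FOSL1, 0.47 for FOSL2, 0.64 for JUN, 0.58 for JUNB and 0.74 for JUND. All 5 stayed above 0, and the call was again FOSL1. The Ribo-Seq library of 19 h was the shallowest, and the part of depth in these differences was not tested. The study lists a higher coding share of Ribo-Seq reads at 6 h of nutlin-3a than in the control listed with it. The part of that share in the TE changes was not tested either. For FOS, FOSB and ATF3 the counting error of a TE change reached 0.43 to 1.00, and for 11 of their 12 changes the interval included 0. The exception was FOS at 2 h, given above.

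**Figure D4:**
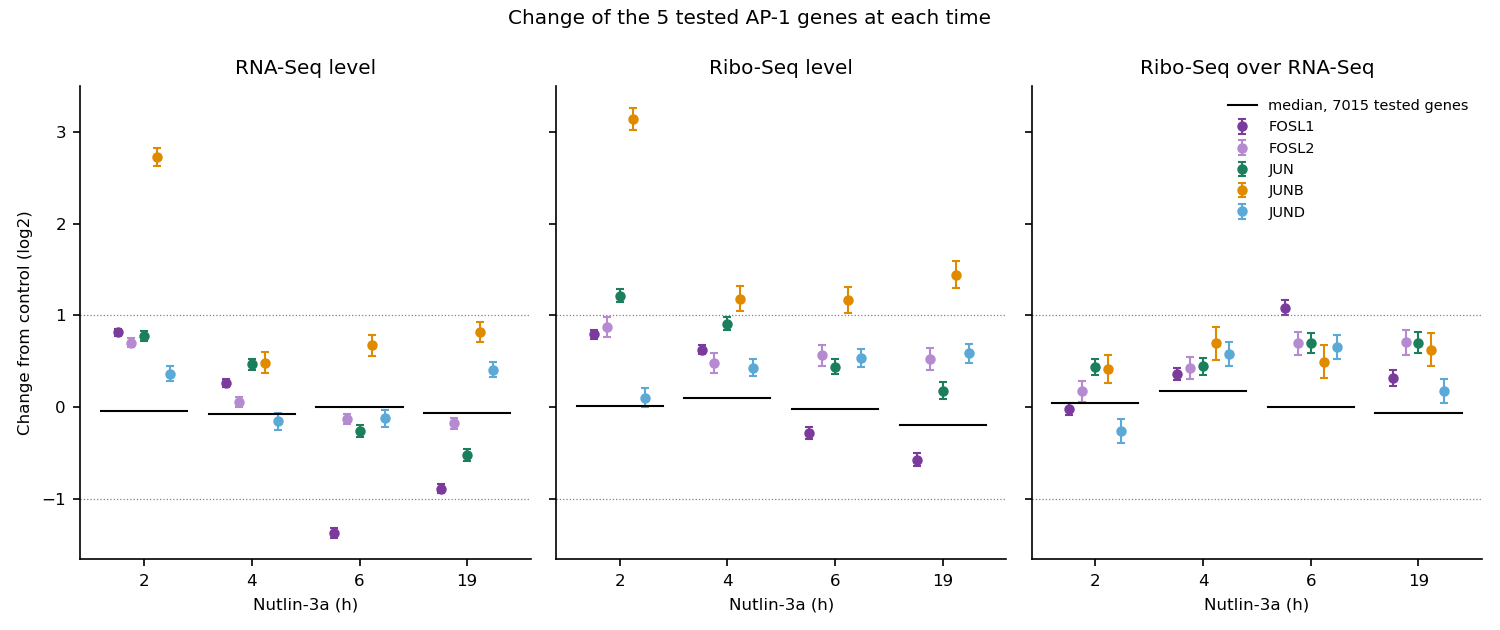
Change from the control (log2) of the 5 tested AP-1 genes at 2, 4, 6 and 19 h of nutlin-3a in RNA-Seq level, Ribo-Seq level and TE; points are single comparisons of 1 library with its control, bars are 95% counting intervals, black lines the median of the 7015 tested genes and dotted lines a 2-fold difference. In TE, all 5 points lie above the black line at 4, 6 and 19 h.

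Of 30 genes listed as targets of AP-1, 22 were tested, and in RNA-Seq 5 were called higher and 0 lower at 2 h and again at 4 h, where 0.927% and 1.41% of all tested genes were called higher. At 2 h EDN1 (endothelin-1, a vasoconstrictor peptide) was at 12.85 FPKM against 3.07 FPKM in the control, and HBEGF (a ligand of the EGF receptor) at 22.0 against 6.50 FPKM. EDN1 was below 5 FPKM in the control in both assays, so it passed the filter through treated libraries. At 4 h ITGA2, a subunit of a collagen-binding integrin, was at 108 against 34.15 FPKM, and CCL2, a chemokine that attracts monocytes, at 135 against 48.8 FPKM. The median log2 changes of the list, in order of time, were 0.17, 0.65, 0.17 and 0.21, beside -0.05, -0.07, -0.0024 and -0.07 for all tested genes. The median of the list was highest at 4 h. In RNA-Seq at that time 7 of the 8 members were above the control, the baseline of that median, and 7 of the 8 were lower than at 2 h. At 6 h ITGA2 was the 1 gene called in RNA-Seq (79.7 FPKM), beside 7.14% of all tested genes. At 19 h the matrix metalloprotease MMP14 (222 against 108 FPKM) and ITGA2 (69.3 FPKM) were called higher, and HBEGF (2.93 FPKM) and EDN1 (1.47 FPKM) lower, where 2.49% of all tested genes were called higher and 7.10% lower. In Ribo-Seq 5, 8, 7 and 6 of the 22 were called higher at the 4 times, beside 2.12%, 2.58%, 5.26% and 6.22% of all tested genes. The 1 lower call there was EDN1 at 19 h (log2 change -1.44), beside 14.9% of all tested genes. Among the higher calls was the matrix protein tenascin-C (TNC) at 179, 192 and 204 FPKM at 2, 6 and 19 h, against 41.3 FPKM in the control. At 4 h TNC was not among the 2 largest rises of the list, nor at any time in RNA-Seq. Per doubling of transcript length, the Ribo-Seq change over all tested genes was 0.15, 0.12 and 0.17 higher at 2, 6 and 19 h. At 4 h it was -0.0013. The part of length in the TNC values was not tested.

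Of 32 other bZIP factors, some of which can pair with AP-1 proteins or compete for their sites, 18 were tested, and MAFF (34.1 against 15.3 FPKM) and CEBPB (26.9 against 12.4 FPKM) were called higher in RNA-Seq at 2 h, beside 0.927% of all tested genes. Their median log2 change was 0.42 at 2 h and 0.13, -0.10 and 0.10 at the later times. MAFF is a small Maf protein without a transactivation region, and CEBPB is a regulator of inflammatory genes. CEBPB was called again at 4 h (26.0 FPKM) and 0 of 18 were called at 6 and 19 h in RNA-Seq, when 7.14% and 9.59% of all tested genes were, so that a count of 0 in 18 genes is near the background. In Ribo-Seq 2, 4, 1 and 3 of 18 were called at the 4 times, beside 2.25%, 3.11%, 13.3% and 21.1% of all tested genes. At 6 and 19 h the shares of the list, 5.56% and 16.7%, were below those of all genes. CEBPB was called in Ribo-Seq at each time, with 69.9, 103, 83.3 and 77.9 FPKM against 33.6 FPKM. DDIT3, the stress factor CHOP, was called there at 4 h (20.6 against 5.975 FPKM), and ATF1, a CREB relative, was called lower at 19 h (6.51 against 13.5 FPKM).

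Of 36 kinases and regulators that act on AP-1 genes or proteins 22 were tested, and 0 were called in either direction in RNA-Seq at 2, 4, 6 and 19 h, when 0.941%, 2.1%, 7.14% and 9.59% of all tested genes were. At these shares few calls among 22 genes come from the background alone, so nothing particular to the list is read from the 0. Their medians were 0.02, -0.04, -0.16 and -0.15. SRF, the factor that binds the serum response element, came nearest in RNA-Seq at 2 h with 39.4 against 25.1 FPKM. In Ribo-Seq 1 of 22 was called at each time, beside 2.25%, 3.11%, 13.3% and 21.1% of all tested genes. The share of the list, 4.55%, was below that of all genes at 6 and 19 h. The call at 2 h was SRF (16.7 against 8.32 FPKM). MAP2K4, a kinase of JNK, was called in Ribo-Seq at 4 h (9.04 against 4.08 FPKM), and at 6 h RPS6KA3, a kinase downstream of ERK, was called lower (2.78 against 6.26 FPKM). At 19 h NACA was called lower (22.4 against 55.0 FPKM); it encodes a chaperone subunit of the ribosome exit that has also been described as a co-activator of JUN.

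The other immediate-early genes, a list that also holds SRF, had most of their calls at 2 h. Of the 19 tested, 8 were called higher in RNA-Seq and 13 in Ribo-Seq at that time, beside 0.927% and 2.12% of all tested genes. At 4 h 2 were called higher in RNA-Seq and 4 in Ribo-Seq, beside 1.41% and 2.58% of all tested genes. KLF4 was called lower in both (log2 changes -1.29 and -1.03), beside 0.684% and 0.527%. At 2 h EGR3 was at 27.2 FPKM against 1.28 FPKM and KLF10 at 112 against 23.9 FPKM in RNA-Seq. EGR3 reached 5 FPKM in RNA-Seq at 2 h alone, so it was tested only through the library of that call. Their median RNA-Seq log2 change was 0.96 at 2 h and 0.24 at 4 h. Genes of the stress response around ATF4, of which 16 were tested, were at their highest count at 4 h, when 10 were called higher in RNA-Seq, as against 5 at 2 h and 3 at 6 and at 19 h, and when their median log2 change was 1.14. Of all tested genes 0.927%, 1.41%, 1.75% and 2.49% were called higher at 2, 4, 6 and 19 h. In Ribo-Seq 6, 9, 6 and 5 of the 16 were called higher at these times, beside 2.12%, 2.58%, 5.26% and 6.22% of all tested genes. In the stress-response list DDIT4, an inhibitor of mTOR signalling, was at 34.2 FPKM at 4 h (3.05 FPKM in the control) and SESN2 at 37.5 FPKM (4.53 FPKM). Both were below 5 FPKM in the control in each assay and passed the filter through treated libraries. SESN2 is a sestrin that the study names as a direct target of p53. ATF4 itself had the lowest RNA-Seq change of the list at 6 h (log2 change -0.38). Which factor lay behind the rise of these genes was not tested.

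The genes whose pattern was most like that of a member were found by the Euclidean distance over 8 log2 changes, those of RNA-Seq and Ribo-Seq at the 4 times. Nearest to ATF3 were PTGS2 (distance 1.51), DUSP5 (1.92) and NUAK2 (2.035). The RNA-Seq log2 changes of PTGS2 were 1.45 and 1.38 at 2 and 4 h and 0.15 and 0.55 at 6 and 19 h, beside 2.26, 2.20, 0.36 and 0.30 for ATF3 with its control set to 1 FPKM. Nearest to FOS were SPRY2 (0.803), LATS2 (0.818) and MCL1 (0.822), and nearest to JUN were PFKFB3 (0.602), FOXC2 (0.613) and IRF2BP2 (0.619). The distances of JUN's neighbours were the smallest of the 3 sets, and those of ATF3's the largest. The points of such a distance share their control library, and no order beyond these values is drawn from it. FOS had 11 to 90 reads per library, and its changes had counting SEs of 0.24 to 0.53. Its Ribo-Seq control was also set to 1 FPKM. The neighbours of FOS are therefore not told apart from other genes at a similar distance.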

How the data were processed

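RNA-Seq and Ribo-Seq levels were taken from 2 tables of FPKM values that the authors deposited, with 5 libraries each and 3 decimals. Per the study's methods and the submitters' processing notes, the authors aligned reads with Bowtie (build hg19 in the notes; the version is not given in the sources used here) to Ensembl protein-coding transcripts, 1 isoform per gene, and kept uniquely mapped reads, so that reads shared by paralogs were lost. One table is named for Ribo-Seq alone. The other carries the names of both assays with 1 column for each time, and was read as RNA-Seq. The methods describe Ribo-Seq FPKM from the coding sequence, whereas the column names say total. The reads recovered below fit the same transcript length in both assays, so Ribo-Seq values were scaled to the same length as RNA-Seq values. Whether Ribo-Seq reads outside the coding sequence were counted could not be decided. The methods name 6 and 19 h of nutlin-3a, and the labels name 2 and 4 h too. The methods describe an effect of sequencing runs, for which the authors compared each condition with the control of its own run, and the labels name no run. The study's list of libraries holds 6 and 19 h of nutlin-3a but not 2 and 4 h. The run of the 2 and 4 h libraries is thus unknown, and its part in their differences was not tested. The floor of 1 FPKM described in the methods was not present in the tables.

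From these values log2 differences from the control were computed with values below 1 FPKM set to 1, for genes that reached 5 FPKM in some RNA-Seq and some Ribo-Seq library, and a difference of 1 or more on the log2 scale was called. TE was the log2 ratio of Ribo-Seq to RNA-Seq. Folds, levels and intervals of single members used the values as deposited. FPKM values of a library are whole multiples of what 1 read is worth. From these steps a length and the reads behind each value were recovered for 11254 of 11258 transcripts. On simulated data the same procedure found 93.5% of 1020 lengths right, so some recovered lengths and reads may be wrong. Intervals of ratios are exact binomial and those of levels exact Poisson, at 95%, and the SE of a log2 ratio is from the reads. They cover counting error only. Per-sample columns left unused numbered 0.

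All 8 members are named with their values. From each of 5 gene lists at most 2 genes with the largest difference each way at each time are named, and 3 genes most alike for ATF3, FOS and JUN. The members and lists were chosen with earlier results of these data known, so a list's direction is not independent evidence. Alternatives were a floor of 5 FPKM, a pseudocount of 1 FPKM, no filter, centring on the median gene, the 2 h library as baseline, and, chosen after seeing the data, removal of a trend with transcript length. Promoter windows are RefSeq's on GRCh38.p14, a build that differs from that of the files, and were matched by symbol. Python 3.11.15, numpy 2.4.6, scipy 1.17.1, pandas 2.3.3 and matplotlib 3.10.9 were used.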

Additional observations from a re-analysis of the deposited data

Results flagged for a closer look

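Members that stood at least 0.5 (log2) above the control at 1 time and at least 0.5 below it at another were picked out, a limit set after the values were seen. FOSL1 was 0.8142 above the control in RNA-Seq at 2 h and at -1.3681 at 6 h. In Ribo-Seq it was 0.7949 above the control at 2 h and at -0.5744 at 19 h. JUN was 0.7778 above the control in RNA-Seq at 2 h and at -0.5223 at 19 h. No test of time against time could be made, since each time holds 1 library per assay, so these differences were not tested, and both differences of a gene are set against the same control library.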

How the results depend on the processing

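No paired analysis was possible because each group held 1 library. Of the recomputed counts of members called 2-fold, 56 stayed within 1.5 times the reported count and 9 did not. With no filter the count was 3 in RNA-Seq at 2 h and 1 at 4 h (reported: 1 and 0), and 5 and 2 in Ribo-Seq at 2 and 4 h (reported: 2 and 1), the difference being FOS, FOSB and ATF3. With the 2 h library as baseline the count in RNA-Seq was 1 at 4 h (JUNB) and 3 at 6 h and at 19 h (FOSL1, JUN and JUNB), and in Ribo-Seq it was 2 at 6 h (FOSL1 and JUNB) and 3 at 19 h (FOSL1, JUN and JUNB), all lower than at 2 h. Against that baseline the 3 called changes of JUNB in Ribo-Seq turned, to a log2 change of -1.96 at 4 h, -1.98 at 6 h and -1.70 at 19 h, because the baseline is the library in which JUNB peaks. That of ATF3 in RNA-Seq at 4 h, a gene below the filter and so not among the tested, was -0.059, which is within counting error of no difference from 2 h. The floor of 5 FPKM, the pseudocount, centring on the median gene and removal of the length trend changed no count of calls by more than 1.5 times.

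With 1 library per group, differences between cultures are not part of any interval. Depth limits FOS, FOSB and ATF3, which had as few as 4 reads in a Ribo-Seq library, and a difference at that depth cannot be told from counting error unless its interval excludes 1.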
